A study of Arabidopsis thaliana with 11 samples.

Results

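On arrays of Arabidopsis thaliana seedling shoots, 59 probe sets met a rule that asks all arrays of plants overexpressing AtNF-YB1 to lie apart. Of these, 32 read higher and 27 lower on each AtNF-YB1 array than on any wild type or CBF4 array. A probe set is a group of short probes that read 1 transcript or a few close ones. The 59 were chosen from 19371 plant probe sets by their values. All 4 AtNF-YB1 arrays had to lie above, or all 4 below, the other 7, with a mean difference of at least 0.3 log2 and a mean of the higher side of at least 4 log2. The genes AT1G15170, GER2, DFR and UF3GT were left out by name, 1 of which met the other conditions. The rule took 0.305% of the 19367 probe sets it could take, 0.165% as higher and 0.139% as lower. Since these values chose the members, their distance from the other arrays is a description and carries no test.

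The study set 35S::AtNF-YB1 lines 3 and 6 and 35S::CBF4 lines 10 and 19 beside Col-0 wild type, with 2 arrays for each line and 3 for wild type. The 35S promoter is active in most plant tissues, and each construct is represented by 2 independent lines, those of AtNF-YB1 described as homozygous. The array titles give the second CBF4 line as 19, while the series text gives a further number beside it, so which line or lines it stands for is uncertain. All groups were 14 days old, grown without soil on vertical plates under 24 h of light per day, and each array held the shoots of a pool of about 24 seedlings, cut from the roots. The labels name no drought, cold or hormone treatment for any group.

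NF-Y is a complex of 3 kinds of subunit, A, B and C, that binds the CCAAT box found in many plant promoters. The B and C subunits pair through histone folds, and an A subunit gives the pair its sequence preference. Arabidopsis has several genes for each kind of subunit, and B subunits are known for roles in embryo development, flowering time and drought tolerance. CBF4 belongs to another family, the AP2-domain activators of cold and drought response genes, and its lines serve here as part of the reference.

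The array medians of the deposited intensities ran from 9.23 to 22.7 units, so levels are given as log2 intensity after quantile normalization, with values below 1.90 units raised to that floor. The 8 photosynthesis genes measured lay at or above the 99.8th percentile of all plant probe sets. Of the 3 root markers measured, PYK10 lay at the 94.4th percentile and EXPA7 and AT5G17820 at the 24.7th and 17.3rd, and their summed level ran from 285 to 420 units in AtNF-YB1, 195 to 419 in CBF4 and 207 to 483 in wild type. A probe set for the NOS vector sequence gave deposited intensities of 285 to 705 units in AtNF-YB1 and 154 to 420 in CBF4. In wild type it read 0.498 (replicate 1), -0.437 (replicate 2) and 52.3 (replicate 3). The E9 vector probe set read 1164 units on replicate 3, 504 to 591 in CBF4, 2.20 to 112 in AtNF-YB1, and 137 and 88.3 in wild type replicates 1 and 2. The rule, the largest differences and the count with wild type between the constructs are therefore also given without the array labelled wild type replicate 3. Tests of single genes against wild type include that array. No probe set carried the name of AtNF-YB1 or of any of the 30 NF-Y subunit genes looked up.

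**Figure D1:**
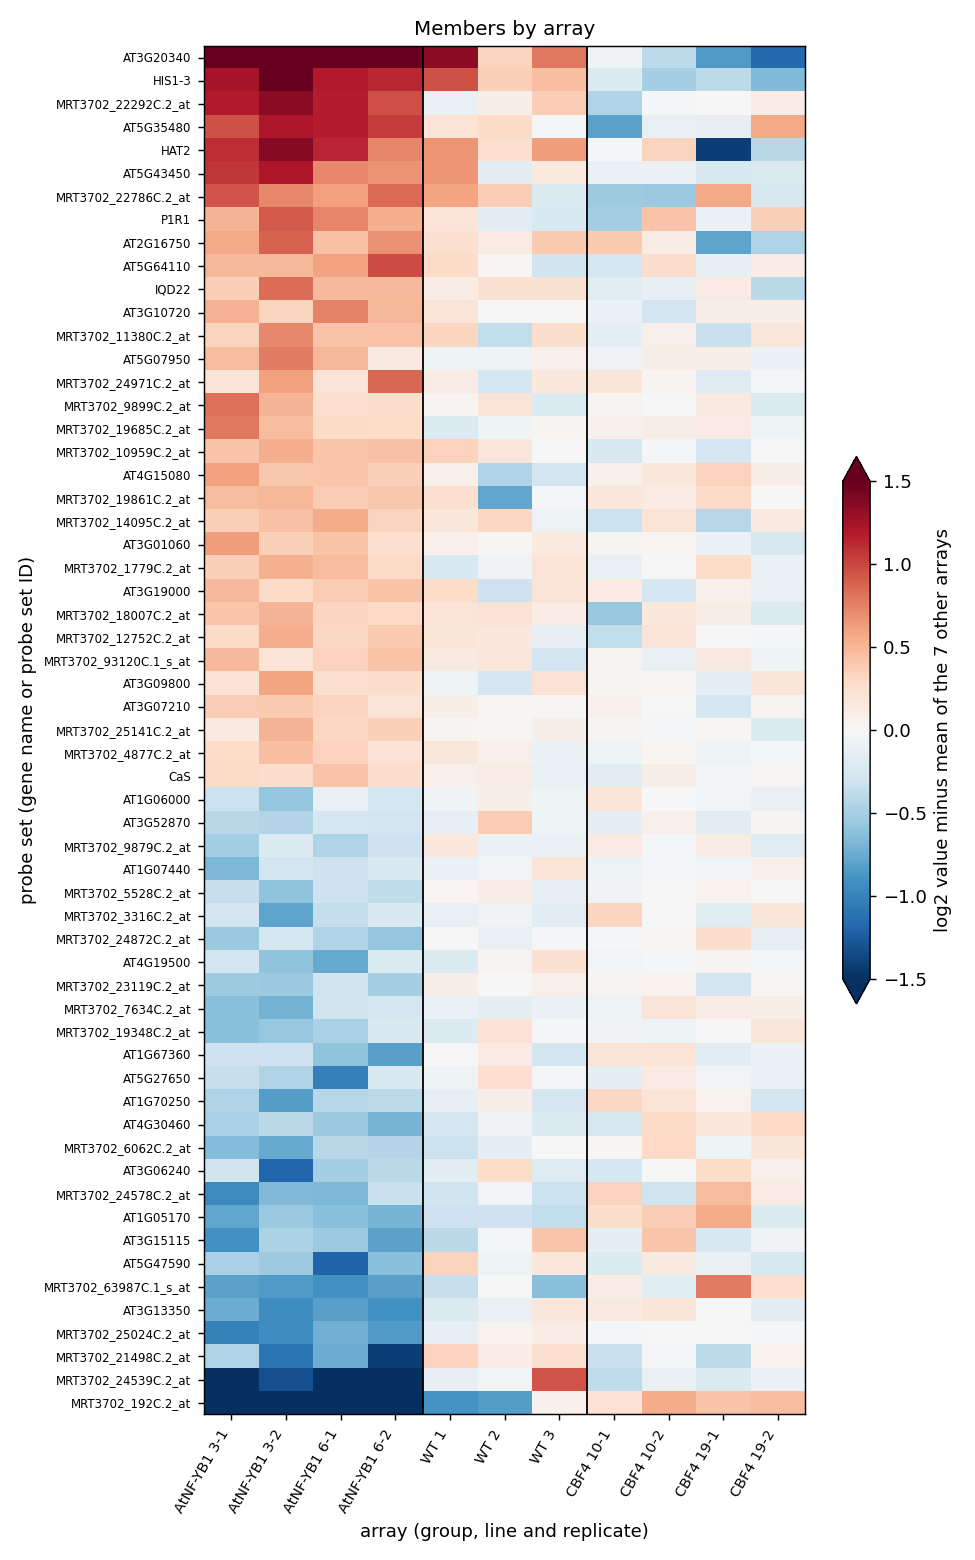
The log2 value on each of the 11 arrays minus the mean of the 7 wild type (WT) and CBF4 arrays, with a row for each of the 59 members (gene name or probe set ID) and a column for each array (line and replicate, such as 3-1); colours are limited at 1.5. The 4 AtNF-YB1 columns are of 1 colour in each row because the rule chose them so. In AT3G20340 and HIS1-3 every wild type column lies above, and every CBF4 column below, the mean of those 7 arrays.

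Most members differed little from the other arrays. Among the 32 higher members the difference from the other 7 arrays ran from 0.31 to 2.23 log2 with a median of 0.46, a 1.37-fold difference, and 20 of them were under 0.5. Among the 27 lower members its size ran from 0.32 to 2.12 with a median of 0.53, a 1.44-fold difference. Over the 9998 plant probe sets whose higher side reached 4 log2, the median size of the same difference was 0.10. The gap between the nearest AtNF-YB1 array and the nearest other array was under 0.05 log2 in 23 members and at least 0.2 in 9. Those 9 were AT3G20340, AT5G35480, AT5G64110, AT3G13350, AT5G47590 and the unnamed MRT3702_22292C.2_at, MRT3702_25024C.2_at, MRT3702_192C.2_at and MRT3702_24539C.2_at. At the threshold on the difference, CaS (0.31) and AT1G06000 (-0.32) lay just inside, and AT5G05450 (0.29) and AT2G40700 (-0.29) just outside. At the threshold on the mean of the higher side, AT5G47590 (4.01) and AT1G70250 (4.06) lay just inside, and MRT3702_631C.1_s_at (3.93) and MRT3702_10422C.2_at (3.91) just outside.

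The same rule applied to the 4 CBF4 arrays against the other 7 took 226 probe sets, 1.17% of those it could take, 121 higher (0.625%) and 105 lower (0.542%). Without any condition on size or level, 129 probe sets (0.666%) had AtNF-YB1 arrays that did not overlap the others, and 336 (1.73%) had such CBF4 arrays. The difference between the constructs in these counts was not tested. How many probe sets would lie apart for 4 arrays taken without regard to construct was not counted. The counts are therefore not said to exceed that number. Leaving out an array makes the rule easier to meet. The count rose to 241 without AtNF-YB1 line 6 replicate 2, 94 without line 6 replicate 1, 91 and 122 without line 3 replicates 1 and 2, and 120, 90 and 92 without wild type replicates 1, 2 and 3. For the CBF4 arrays it rose to 381 without line 10 replicate 2 and 358 without line 19 replicate 2.

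Of the 59 members 30 had a gene name, 17 of them higher and 13 lower, and the rest are cited by probe set ID. Array values below are log2 intensities, in the order line 3 replicates 1 and 2 and line 6 replicates 1 and 2 for AtNF-YB1, replicates 1 to 3 for wild type, and line 10 replicates 1 and 2 and line 19 replicates 1 and 2 for CBF4. Because RNA came from whole shoots, a higher level per cell and a larger share of cells that express a gene cannot be told apart.

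Genes of DNA and chromatin made up 4 of the named members, 2 higher and 2 lower. HIS1-3, which encodes a linker histone variant that drought and abscisic acid induce, read 4.47, 4.89, 4.42 and 4.36 on the AtNF-YB1 arrays, 4.18, 3.59 and 3.68 on the wild type arrays and 3.02, 2.74, 2.84 and 2.57 on the CBF4 arrays. The AtNF-YB1 arrays lay above wild type, and the CBF4 arrays below it, with no overlap among the 3 groups. Its AtNF-YB1 mean was 1.31 log2 above the other 7 arrays, a 2.47-fold difference, made of 0.72 against wild type and 1.75 against CBF4.

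HAT2, a homeodomain-leucine zipper factor gene that auxin induces, read 4.49, 4.75, 4.53 and 4.12 on the AtNF-YB1 arrays, 4.05, 3.64 and 4.01 in wild type, and 3.35, 3.73, 1.97 and 2.97 in CBF4. The CBF4 arrays were spread widely, with an SD of 0.76 against 0.26 in AtNF-YB1, and the array of line 6 replicate 2 came within 0.08 of wild type replicate 1. The differences were 0.57 from wild type and 1.47 from CBF4.

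AT3G13350, which encodes a protein with an HMG box and an ARID DNA-binding domain, was the lower named member with the largest difference. It read 4.49, 4.29, 4.41 and 4.31 on the AtNF-YB1 arrays, 5.01, 5.11 and 5.39 in wild type, and 5.36, 5.41, 5.23 and 5.06 in CBF4. Wild type and CBF4 overlapped throughout, and every AtNF-YB1 array lay at least 0.52 below both. AT5G27650, a PWWP-domain protein gene, was 0.51 lower than the other arrays (-0.34 without line 6 replicate 1), with means of 3.72 ± 0.35 in AtNF-YB1 (SD, n = 4), 4.29 ± 0.18 in wild type (n = 3) and 4.19 ± 0.12 in CBF4 (n = 4).

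**Figure D2:**
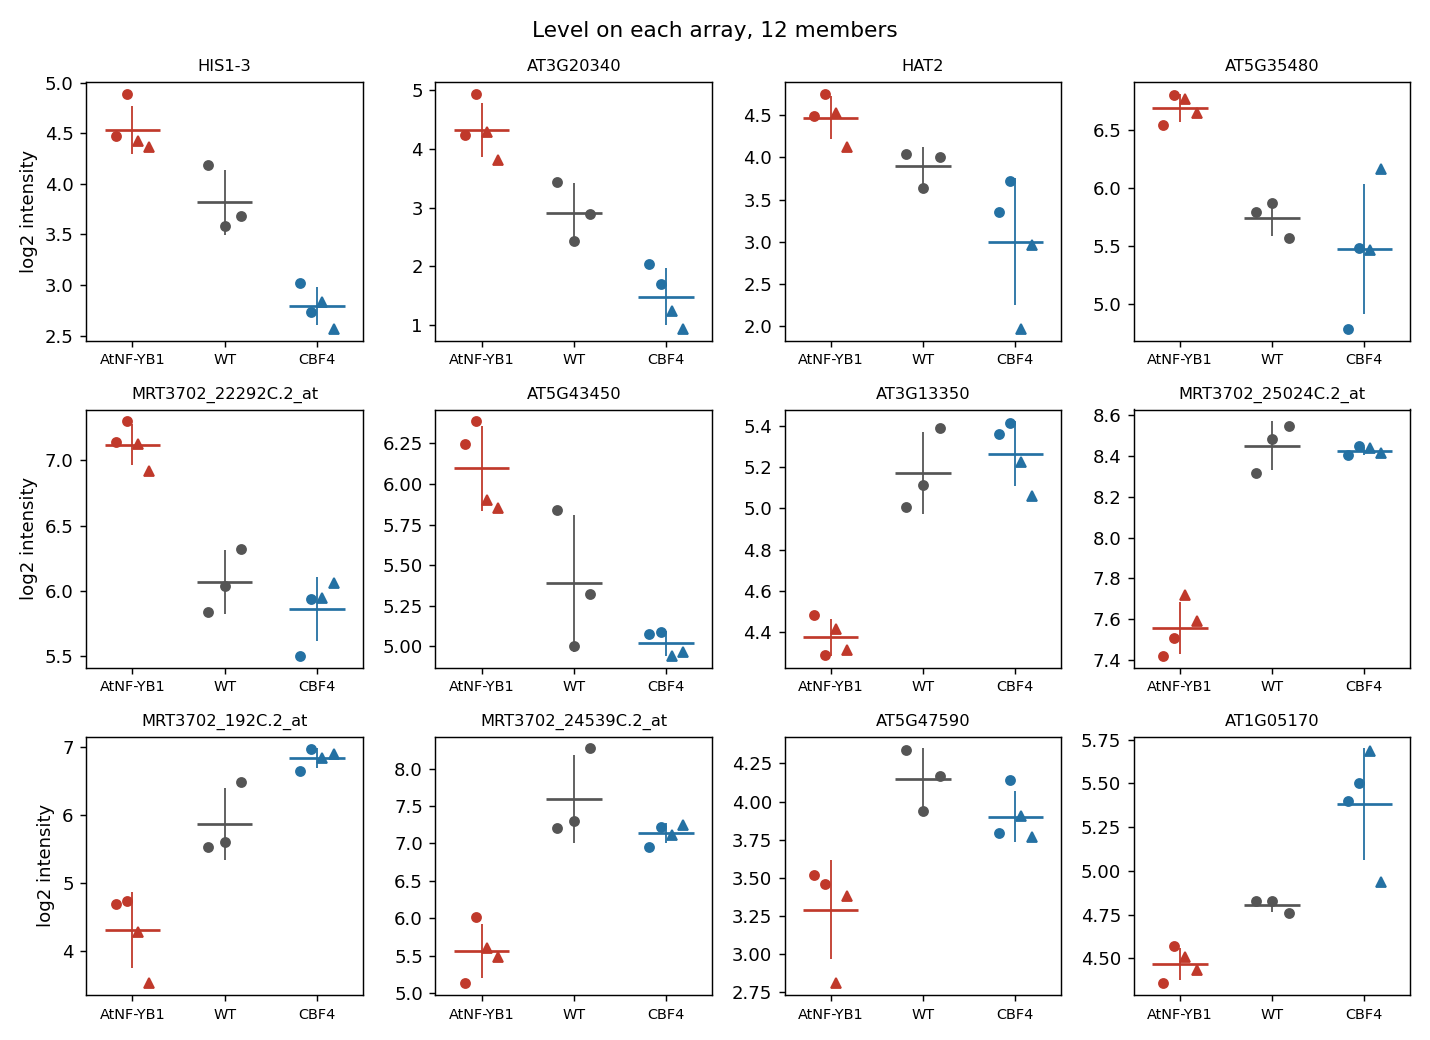
The log2 intensity of 12 members on each array, grouped as AtNF-YB1, wild type (WT) and CBF4; circles are lines 3 and 10 and wild type, triangles are lines 6 and 19, horizontal bars are means and vertical bars are SD, and each panel has its own axis. HIS1-3 and AT3G20340 step down from AtNF-YB1 through wild type to CBF4, while in AT3G13350 and MRT3702_25024C.2_at wild type and CBF4 share 1 level.

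Genes of calcium and calmodulin gave 3 members, 2 higher and 1 lower. CaS, which encodes a calcium-sensing protein of the chloroplast thylakoids, read 10.14, 10.13, 10.29 and 10.13 in AtNF-YB1 against 9.76 to 9.97 in wild type and 9.70 to 9.94 in CBF4. Its AtNF-YB1 SD was 0.08, and the difference of 0.31 was the smallest among the higher members. IQD22, of a family of calmodulin-binding IQ-domain proteins, read 5.22, 5.68, 5.33 and 5.33 in AtNF-YB1, 4.96, 5.07 and 5.08 in wild type, and 4.69, 4.72, 4.97 and 4.44 in CBF4. AT3G52870, another IQ-motif protein gene, was 0.35 lower than the other arrays, at 6.17 ± 0.09 (SD, n = 4) against 6.59 ± 0.28 in wild type (n = 3) and 6.48 ± 0.12 in CBF4 (n = 4).

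Metabolic enzymes and a lipid droplet protein gave 5 members, 2 higher and 3 lower. The 2 higher genes encode oxygenases of the iron- and oxoglutarate-dependent family. AT5G43450 read 6.25, 6.39, 5.90 and 5.85 in AtNF-YB1, 5.84 on wild type replicate 1 and at most 5.32 on the other wild type arrays, and 5.08, 5.09, 4.94 and 4.97 in CBF4. Line 6 replicate 2 came within 0.0121 of wild type replicate 1, while the CBF4 arrays held together at an SD of 0.08. AT3G19000 was 0.40 higher, at 6.81 ± 0.08 in AtNF-YB1 against 6.46 ± 0.32 in wild type and 6.37 ± 0.17 in CBF4.

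The lower enzymes were AT1G06000, a flavonol rhamnosyltransferase gene, and AT1G07440, of the tropinone reductase-like dehydrogenases, at -0.32 and -0.38 log2 from the other arrays. The gap that set AT1G06000 apart was 0.0023 log2, between 7.67 on AtNF-YB1 line 6 replicate 1 and 7.67 on CBF4 line 19 replicate 2. AT1G67360, which encodes a lipid droplet-associated protein, read 7.16, 7.16, 6.87 and 6.66 in AtNF-YB1, 7.47, 7.60 and 7.19 in wild type, and 7.66, 7.68, 7.31 and 7.39 in CBF4. The line 3 arrays lay 0.03 below the array labelled wild type replicate 3.

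Cell wall and secreted proteins gave 4 members, 2 higher and 2 lower. AT5G64110, a class III peroxidase gene, read 4.35, 4.33, 4.44 and 4.83 in AtNF-YB1, 4.13, 3.87 and 3.54 in wild type, and 3.59, 4.11, 3.72 and 3.95 in CBF4. Its means in wild type (3.85 ± 0.29) and CBF4 (3.84 ± 0.24) differed by less than their spread, and AtNF-YB1 was 0.64 above each. AT3G10720, of the pectin methylesterases that modify wall pectin, was 0.52 higher, at 5.81 ± 0.17 against 5.35 ± 0.12 in wild type and 5.24 ± 0.18 in CBF4.

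Lower were AT1G05170, of a galactosyltransferase family, and AT4G30460, a glycine-rich protein gene. AT1G05170 read 4.36, 4.57, 4.51 and 4.43 in AtNF-YB1, 4.83, 4.83 and 4.76 in wild type, and 5.40, 5.50, 5.69 and 4.93 in CBF4. The 3 groups did not overlap, and wild type lay nearer to AtNF-YB1 (0.34 log2) than to CBF4. AT4G30460 was at 4.51 ± 0.13 in AtNF-YB1, 4.88 ± 0.10 in wild type and 5.18 ± 0.25 in CBF4.

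Signalling, immunity and protein turnover gave 5 members, 1 higher and 4 lower. The higher was AT2G16750, a protein kinase gene, at 4.34 ± 0.19 in AtNF-YB1, 3.95 ± 0.14 in wild type and 3.51 ± 0.53 in CBF4. AT5G47590, of the small heat shock protein family, read 3.52, 3.46, 2.81 and 3.38 in AtNF-YB1, 4.34, 3.93 and 4.17 in wild type, and 3.80, 4.14, 3.90 and 3.77 in CBF4. The receptor-like kinase gene AT1G70250, the TIR-type resistance gene AT4G19500 and the F-box protein gene AT3G06240 were at -0.53, -0.47 and -0.60 log2 from the other arrays. AT3G06240 read 4.56 on AtNF-YB1 line 3 replicate 1 and 3.67 on replicate 2, so its distance from the others differed between arrays of the same line.

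Membrane trafficking gave 2 members, both higher. AT3G09800, which encodes a coatomer subunit of vesicle coats, was 0.33 higher, and its nearest arrays, AtNF-YB1 line 3 replicate 1 and the array labelled wild type replicate 3, both read 5.35. AT4G15080, of the protein S-acyltransferases, read 4.62, 4.41, 4.42 and 4.36 in AtNF-YB1, 4.08, 3.56 and 3.71 in wild type, and 4.07, 4.17, 4.35 and 4.10 in CBF4. Here the CBF4 mean lay between those of AtNF-YB1 and wild type. The AtNF-YB1 mean was 0.28 log2 above CBF4 and 0.67 above wild type, and the CBF4 mean was 0.39 above wild type.

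A further 7 named members are given without a role, 6 higher and 1 lower. AT3G20340 had the largest difference of all higher members, 2.23 log2 or 4.68-fold at the floor used here and 1.75 log2 with the floor at the 30th percentile. It read 4.23, 4.94, 4.29 and 3.81 in AtNF-YB1, 3.43, 2.42 and 2.88 in wild type, and 2.03, 1.70, 1.24 and 0.93 in CBF4. The last value is the floor, the 1 floor value among the 649 of the members, and the other CBF4 values lie near it, so the distance from CBF4 (2.84 log2) depends on the floor. The distance from wild type was 1.41 log2, a 2.65-fold difference.

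AT5G35480 read 6.55, 6.81, 6.77 and 6.64 in AtNF-YB1, 5.79, 5.87 and 5.57 in wild type, and 4.79, 5.48, 5.46 and 6.16 in CBF4. The unnamed MRT3702_22292C.2_at, whose number follows that of the AT5G35480 probe set MRT3702_22291C.2_at, read 7.14, 7.30, 7.12 and 6.91 in AtNF-YB1, 5.84, 6.04 and 6.32 in wild type, and 5.50, 5.94, 5.94 and 6.06 in CBF4. The pair had similar differences from the other arrays, 1.10 and 1.17 log2. Among the members, 1 other pair had numbers at most 2 apart, AT3G09800 and the unnamed MRT3702_11380C.2_at, which was 0.48 higher.

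P1R1, AT5G07950, AT3G01060 and AT3G07210 were 0.68, 0.47, 0.42 and 0.33 log2 higher, and AT3G15115 was 0.68 lower. In AT3G15115 wild type and CBF4 had the same mean, 4.07 ± 0.41 (SD, n = 3) and 4.07 ± 0.29 (n = 4), against 3.38 ± 0.21 in AtNF-YB1 (n = 4). Of the named members, none had a second probe set under the same name. Among all members 4 were of the s_at type, which in Affymetrix naming can match more than 1 transcript.

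The largest lower differences belonged to probe sets without a name. MRT3702_192C.2_at read 4.68, 4.73, 4.27 and 3.52 in AtNF-YB1, 5.52, 5.60 and 6.48 in wild type, and 6.65, 6.98, 6.85 and 6.89 in CBF4. The 3 groups did not overlap, and the AtNF-YB1 mean differed by -1.57 log2 from wild type and by -2.54 from CBF4. MRT3702_24539C.2_at read 5.13, 6.01, 5.61 and 5.48 in AtNF-YB1, 7.21, 7.29 and 8.27 in wild type, and 6.95, 7.22, 7.11 and 7.25 in CBF4. Its gap of 0.94 to the nearest other array was the widest among the 59 members. The array labelled wild type replicate 3 stood above the other wild type arrays in both probe sets.

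MRT3702_25024C.2_at read 7.42, 7.51, 7.72 and 7.59 in AtNF-YB1, 8.32, 8.49 and 8.55 in wild type, and 8.41, 8.45, 8.44 and 8.42 in CBF4. Wild type and CBF4 shared 1 level, with a CBF4 SD of 0.02, and AtNF-YB1 was 0.88 below it. MRT3702_21498C.2_at and MRT3702_63987C.1_s_at were at -0.93 and -0.84 log2 from the other arrays. Of the unnamed higher members, MRT3702_22786C.2_at, MRT3702_24971C.2_at, MRT3702_9899C.2_at and MRT3702_11380C.2_at were 0.78, 0.47, 0.46 and 0.48 log2 higher.

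The rule used the wild type and CBF4 arrays together, and a member whose CBF4 arrays lie far off on the other side meets its minimum difference more easily. The position of wild type relative to CBF4 is therefore a description, and its counts and p-values are not independent of how the members were chosen. Wild type lay between AtNF-YB1 and CBF4 in 42 of the 59 members: CBF4 was below wild type in 25 of the 32 higher members and above it in 17 of the 27 lower members. Over the 9749 plant probe sets with a mean of at least 4 log2, 51.1% were lower in CBF4 than in wild type. In many members the difference was close to 0, so the count was also taken where it exceeded its standard error, and wild type was then between in 16 of 19 higher and 9 of 13 lower members. Of the probe sets with a mean of at least 4 log2 and a difference above its standard error, 54.3% were lower in CBF4. Across the scalings and floors tried the count of 42 ran from 39 to 42. It was 36 without wild type replicate 1 and 40 without the array labelled wild type replicate 3.

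At an adjusted p below 0.05 in limma, 0 of the 59 members passed between CBF4 and wild type, beside 0.232% of all plant probe sets. Unadjusted limma p-values below 0.05 were found in 11 of 59 (18.6%). The shares were 6.14% over all plant probe sets and 7.29% over the 9749 with a mean of at least 4 log2. Nothing about the members is read from these shares. HIS1-3 was -1.03 ± 0.18 log2 (SE, 4 arrays against 3) in CBF4 against wild type, with a limma adjusted p of 0.173, below wild type on 4 of 4 CBF4 arrays. AT3G20340 was -1.44 ± 0.29 (limma adjusted p = 0.26), which became -0.60 ± 0.28 with the floor at the 30th percentile (limma adjusted p = 1). HAT2 was -0.89 ± 0.26 (limma adjusted p = 0.519). AT1G05170 and MRT3702_192C.2_at were 0.57 ± 0.17 and 0.97 ± 0.28 higher in CBF4 than in wild type (limma adjusted p = 0.517 for both). Without CBF4 line 19 replicate 2, AT1G05170 passed, at 0.76 ± 0.07 with a limma adjusted p of 0.0136.

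The remaining 6 of those 11 were AT2G16750, MRT3702_63987C.1_s_at, MRT3702_7634C.2_at, MRT3702_10959C.2_at, AT4G15080 and MRT3702_6062C.2_at. Their differences were -0.44, 0.56, 0.18, -0.30, 0.39 and 0.26 log2 in that order. On unscaled values MRT3702_7634C.2_at, MRT3702_6062C.2_at and AT4G15080 differed by 0.03, 0.10 and 0.26. Without wild type replicate 1 the difference of MRT3702_6062C.2_at was 0.17, and without CBF4 line 10 replicate 2 that of MRT3702_7634C.2_at was 0.12. The median size of the CBF4 to wild type difference was 0.12 log2 in the members and 0.12 over the 9749 probe sets.

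**Figure D3:**
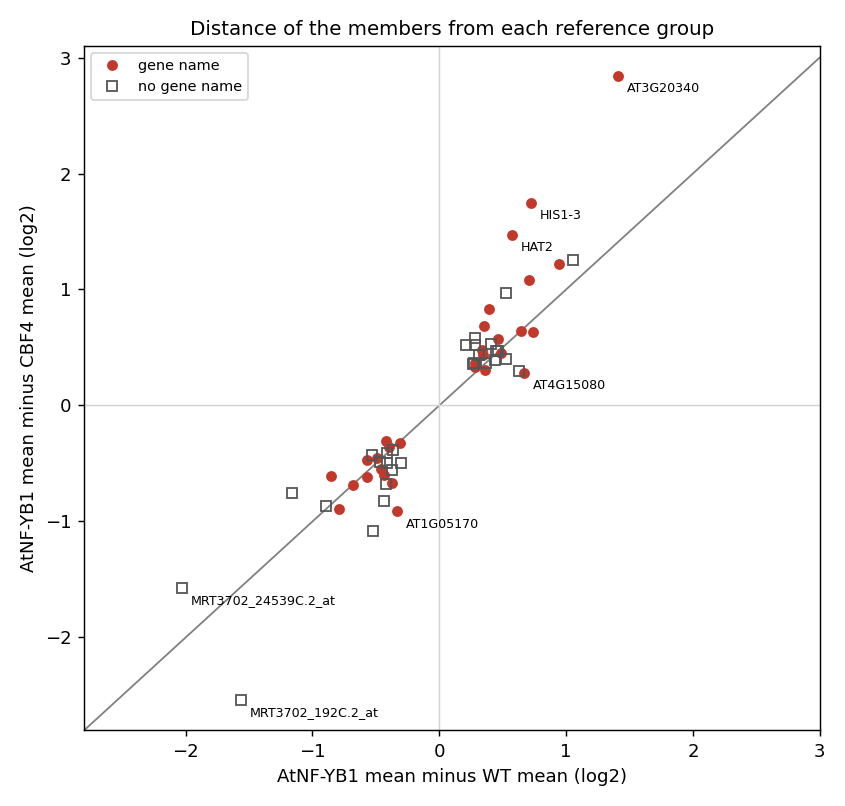
For each of the 59 members, the AtNF-YB1 mean minus the wild type (WT) mean on the horizontal axis and minus the CBF4 mean on the vertical axis, both in log2; filled circles have a gene name, open squares have none, and the line marks equal distance. Points farther from 0 vertically than horizontally are the 42 members with wild type between the constructs, among them AT3G20340, HIS1-3, HAT2 and MRT3702_192C.2_at.

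The other array nearest to the AtNF-YB1 arrays was a wild type array in 37 of the 59 members, and it was wild type replicate 1 in 21 of them. Wild type gave 3 of the 7 other arrays. The count follows in part from wild type lying between in 42 members, and it was not tested. On the AtNF-YB1 side line 6 replicate 2 was the nearest array in 23 members, line 3 replicate 1 in 14, and line 6 replicate 1 and line 3 replicate 2 in 11 each.

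The rule also required both AtNF-YB1 lines to lie on the same side of the other arrays, so members on which the lines disagree could not enter, and the comparison of the lines is a description. Of the members 0 of 59 passed in line 6 against line 3 (limma adjusted p, lowest 0.703), beside 0.0258% of all plant probe sets. An unadjusted limma p below 0.05 was found in 4.18% of all plant probe sets. The share was 3.72% over the 9749 with a mean of at least 4 log2. Among the members 3 of 59 (5.08%) had one. Those 3 were MRT3702_7634C.2_at, at 0.38 ± 0.08 log2 higher in line 6 (SE, 2 arrays against 2), AT1G67360 at -0.39 ± 0.13 and MRT3702_19685C.2_at at -0.35 ± 0.13. The first was 0.20 with median centring, and the other two were -0.17 and -0.06 on unscaled values. Without line 3 replicate 1, MRT3702_19685C.2_at was at -0.19. Line 3 was farther than line 6 from the other 7 arrays in 23 of the 32 higher members and in 15 of the 27 lower ones. The median line 6 minus line 3 difference was -0.10 log2 in the higher members and 0.03 in the lower, and 0.00 over the 9749 probe sets.

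**Figure D4:**
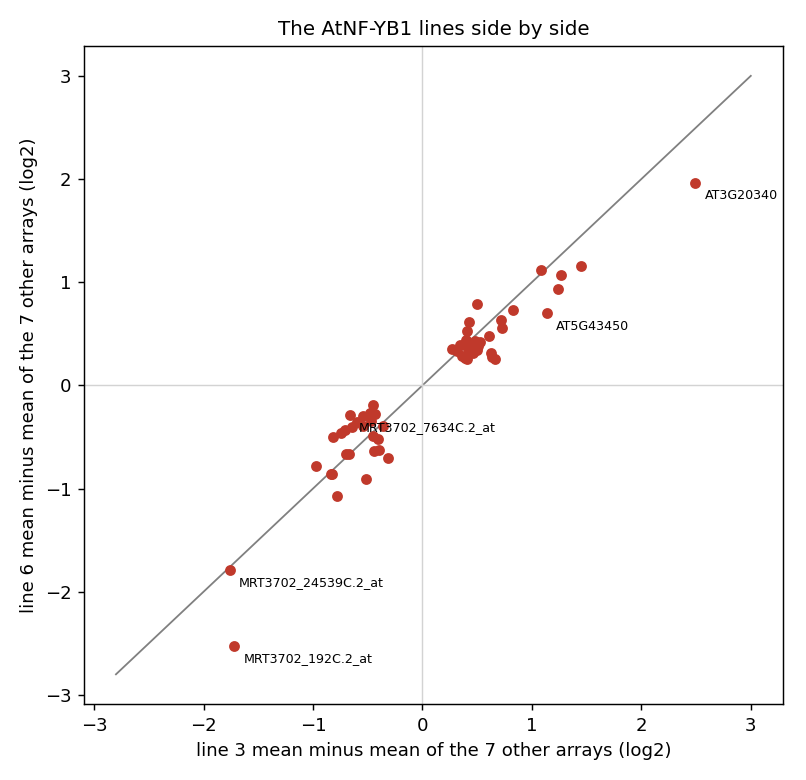
For each of the 59 members, the mean of line 3 (horizontal) and of line 6 (vertical) minus the mean of the 7 wild type and CBF4 arrays, in log2, with a line of equal values. The members lie along the line, and the widest separations belong to MRT3702_192C.2_at, with line 6 lower, and AT3G20340, with line 3 higher.

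The members turned on how the arrays were scaled. With each array centred on its median the rule took 68 probe sets, of which 43 were among the 59, and the split moved from 32 higher and 27 lower to 49 higher and 19 lower. Of the 30 named members 21 were kept. Not kept were AT5G43450, CaS, AT3G09800, AT3G01060, AT1G06000, AT1G07440, AT1G67360, AT3G52870 and AT3G06240. The unnamed MRT3702_21498C.2_at and MRT3702_7634C.2_at were also not kept. On the deposited values without scaling it took 13, of which 1 was higher and 8 were among the 59. Those 8 were AT3G13350, AT3G15115 and the unnamed MRT3702_192C.2_at, MRT3702_24539C.2_at, MRT3702_25024C.2_at, MRT3702_63987C.1_s_at, MRT3702_19348C.2_at and MRT3702_22292C.2_at, and they also met the rule with median centring. Unscaled, the differences of AT3G07210, AT3G09800, AT4G15080 and AT5G07950 were 0.15, 0.19, 0.28 and 0.31 log2, and those of MRT3702_24971C.2_at and MRT3702_9899C.2_at were both 0.29. As deposited, HIS1-3 gave 24.7 units on wild type replicate 1 and 17.2 to 25.3 on the AtNF-YB1 arrays, so its separation from wild type appears only after scaling. The same held for other higher members with large differences. On wild type replicate 1 and the AtNF-YB1 arrays, AT3G20340 gave 15.0 and 13.6 to 21.2 units. HAT2 gave 22.5 and 15.4 to 25.7, and AT5G35480 gave 74.2 and 70.8 to 123. With median centring HIS1-3, AT3G20340, HAT2 and AT5G35480 all met the rule. Their differences from the other arrays were then 1.32, 2.23, 1.10 and 1.16 log2.

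Without the array labelled wild type replicate 3, 56 of the 59 met the rule, and AT5G47590, AT3G15115 and CaS did not. CaS fell short on the difference, at 0.298 log2, and the other two on the mean of the higher side, at 3.96 for AT5G47590 and 3.97 for AT3G15115. Without that array the difference was 2.33 log2 for AT3G20340, 1.37 for HIS1-3, -2.10 for MRT3702_192C.2_at and -1.61 for MRT3702_24539C.2_at.

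**Figure D5:**
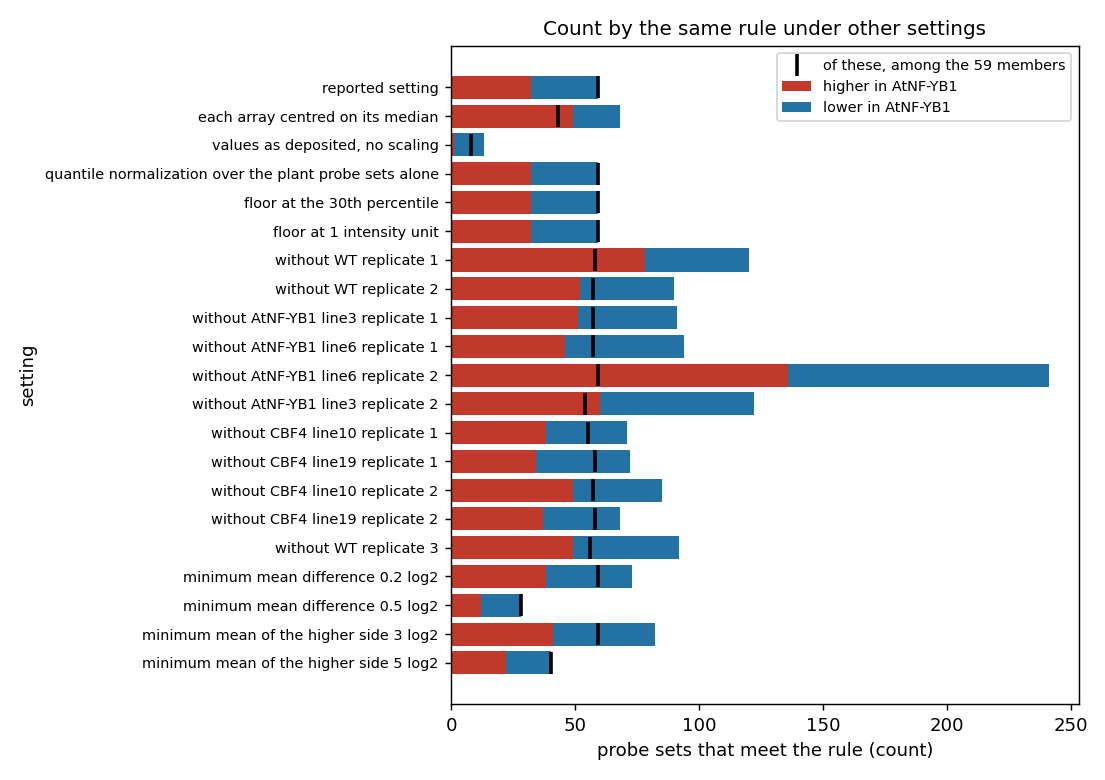
The number of probe sets that met the rule under each setting, split into higher (red) and lower (blue) in AtNF-YB1, with a black mark at the number that were among the 59 members. The count is lowest on unscaled values (13) and highest without AtNF-YB1 line 6 replicate 2 (241).

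Genes known from NF-Y and drought biology were looked up by lists. Of 17 drought and abscisic acid genes 3 were measured under a name, 1 of them the member HIS1-3, which is left aside here because the rule used its values. Of the other two 0 passed in AtNF-YB1 against wild type in either direction by limma, beside 0.0155% of all plant probe sets. COR47, a dehydrin, was at -0.05 ± 0.19 log2 (SE), and LEA4-5, a late embryogenesis protein gene, at -1.05 ± 1.23. Of 14 endoplasmic reticulum folding genes, a process in which NF-Y acts with the factor bZIP28 in Arabidopsis, 4 were measured and 0 passed. BZIP60 was at 0.34 ± 0.26, DER1 at 0.11 ± 0.14, BZIP28 at -0.09 ± 0.15 and CRT1b at -0.24 ± 0.13. Of the 8 flowering genes 0 were measured under a name. The 8 photosynthesis genes, 3 reference genes and 3 root markers measured gave 0 calls, with median differences of 0.05, -0.02 and 0.18 log2 against 0 over all plant probe sets. Taking unadjusted p-values below 0.05, which 4.02% of all plant probe sets had, the count was 1 in the root list (AT5G17820, whose AtNF-YB1 mean was at the floor) and 0 in the others, HIS1-3 again left aside.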

How the data were processed

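The deposited table holds 1 intensity per probe set and array on a linear scale, 13.4% of the plant values being below 0. Per the labels' protocols, RNA was prepared with RNeasy, amplified with MessageAmp and labelled with biotin. How the authors summarized and scaled the probe signals was not stated there. The 284 control probe sets were left out. The other 19374 were brought to 1 distribution across the 11 arrays (quantile normalization), floored at their 20th percentile (0.93 log2) and put on the log2 scale. Names are those of GEO's platform annotation: 11598 plant probe sets had 1 name, 0 had several and 7773 had none, and 11547 matched the RefSeq table of TAIR10.1 by gene ID.

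CBF4 against wild type and line 6 against line 3, both on arrays the rule had used, and, for the gene lists, AtNF-YB1 against wild type were tested in 1 limma fit of 5 line groups with 6 residual degrees of freedom (lmFit and eBayes, two-sided, Benjamini-Hochberg over all 19374). The series text calls the replicates biological; p-values reflect how these seedling pools varied. The number of arrays limits the precision. The procedure was also run on simulated data with independent noise and planted changes, which checks the calculation and says nothing about these members. Named members are all those with a gene name, the 5 higher and 5 lower without one that differed most, and those nearest each threshold. MRT3702_19348C.2_at, MRT3702_7634C.2_at, MRT3702_10959C.2_at, MRT3702_6062C.2_at and MRT3702_19685C.2_at were named after their values were seen, to complete a count. The members, gene lists and role groups were chosen with earlier results of these data known. A planned search of promoters for motifs was not run, as no sequences were used here. Alternatives were other scalings, floors and thresholds, a replicate block, other variance settings and leaving out each array. Tools were R 4.3.3, limma 3.58.1, Python 3.11.15, numpy 2.4.6, pandas 2.3.3 and matplotlib 3.10.9.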

Additional observations from a re-analysis of the deposited data

Results flagged for a closer look

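In 80 sets of 4 arrays, the AtNF-YB1 and the CBF4 arrays of 40 members, outlying arrays were sought with Dixon's 95% critical value. In 2 sets the gap from an array to the nearest of the others took more of the whole range than that value allows. In unselected data chance flags about 1 in 20 sets. The rule chose the members by these values, so that rate does not apply here. CaS read 10.29 log2 on AtNF-YB1 line 6 replicate 1, against 10.13 to 10.14 on the other AtNF-YB1 arrays. AT3G09800 read 5.72 on AtNF-YB1 line 3 replicate 2, against 5.35 to 5.40 on the others. Each lay on the far side from the wild type and CBF4 arrays, where the rule sets no limit on an AtNF-YB1 array.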

How the results depend on the processing

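The count of members was 13 without scaling and 28 with a minimum difference of 0.5 log2, and 68 to 241 when single arrays were left out, with 54 to 59 of the members among them. It was 59 with either other floor or with normalization over plant probe sets alone. The count by the same rule for CBF4, an alternative added after the data were seen like the count with wild type between, was 88 without scaling and 232 to 381 without single arrays. Of the 200 differences of the 40 named members under other scalings and floors, 12 moved by more than the SD of the AtNF-YB1 arrays. Their direction was fixed by the choice of members and shows no stability. The members called in CBF4 against wild type were 0 in each setting except without CBF4 line 19 replicate 2, a range of 0 to 1, and in line 6 against line 3 they were 0 throughout. Over all plant probe sets, CBF4 against wild type gave 45 calls, 5 without scaling and 25 to 130 without single arrays. Line 6 against line 3 gave 5 calls (809 at an unadjusted p below 0.05), 1 without scaling, 10 with a floor at the 30th percentile, 0 with dim probe sets left out and 3 to 207 without single arrays, where a lone array of a line is assumed to vary like the other groups. With the replicate number as a block these counts were 13 and 1, and no member passed. The same-numbered arrays of different groups deviated together at r = -0.47 to 0.41, over 0.1 in 4 of 10 pairs of groups, so the numbers were not taken to pair the arrays. Probe set signal over background, of unknown derivation here, limits what can be read near the floor.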
